A study of Schizosaccharomyces pombe with 8 samples.

Results

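Histone H3 occupancy was examined across the nuclear protein-coding genes of fission yeast (Schizosaccharomyces pombe), using the 2 chromatin immunoprecipitation sequencing (ChIP-seq) libraries made with an antibody against histone H3. All protein-coding gene rows on chromosomes I, II and III of at least 500 nt entered, which gave 4968 genes of 5129 gene rows and 19343 rows in all. The 200 genes of lowest mean H3 density and the 200 genes of highest mean H3 density were then described, 400 genes together. Since H3 density itself chose these genes, their H3 values are given as a description, without a test.

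The series holds ChIP-seq of histone H3, of H3 acetylated on lysine 14 (H3K14ac) and of acetylated histone H4 (H4ac) in wild-type cells, and an Input (chromatin before precipitation). The labels give 2 libraries for each of these 4 groups, described as biological replicates, and 6 of the 8 libraries were in the table used here. All came from the strain YAM2394, which the labels call wild type and the study lists as h+ ade6-M210 ura4-D18 leu1-32. The cells were growing exponentially and were fixed with formaldehyde, and no mutant or treated group was included. A figure legend of the study names another strain, YAM2400, listed as h-, for these ChIP-seq data; the labels and the methods name YAM2394. All libraries share 1 strain, and the absence of tags over ura4 described below was seen in all 6. Values are tag densities in tags per nt of gene, which the authors scaled between libraries by 1 factor per library. The 2 Input libraries were not analysed here, so H3 density was not corrected for how well a sequence is recovered or sequenced.

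DNA in the nucleus is wrapped around histone octamers, the nucleosomes, and H3 is a core subunit present in each of them. A ChIP with an antibody against H3, whatever its modifications, follows how densely a stretch of DNA carries nucleosomes. In yeasts, the promoters of many genes are depleted of nucleosomes, and heavily transcribed genes lose part of them over the gene body as well, while silent chromatin near the chromosome ends stays packed.

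Most genes lay in a narrow band of H3 density. The median was 1.25 tags per nt in H3 replicate 1 and 1.25 in replicate 2. For the mean of both libraries it was 1.24, with quartiles at 1.08 and 1.38, and 5% of genes were below 0.758 and 5% above 1.57. The 200 lowest genes ran from 0 to 0.723 tags per nt and had medians of 0.628 and 0.630 in replicates 1 and 2. The 200 highest genes ran from 1.59 to 5.60 and had medians of 1.65 and 1.67. The median of the highest set was 2.63 times that of the lowest set, and the lowest set departed further from the overall median than the highest set did.

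**Figure D1:**
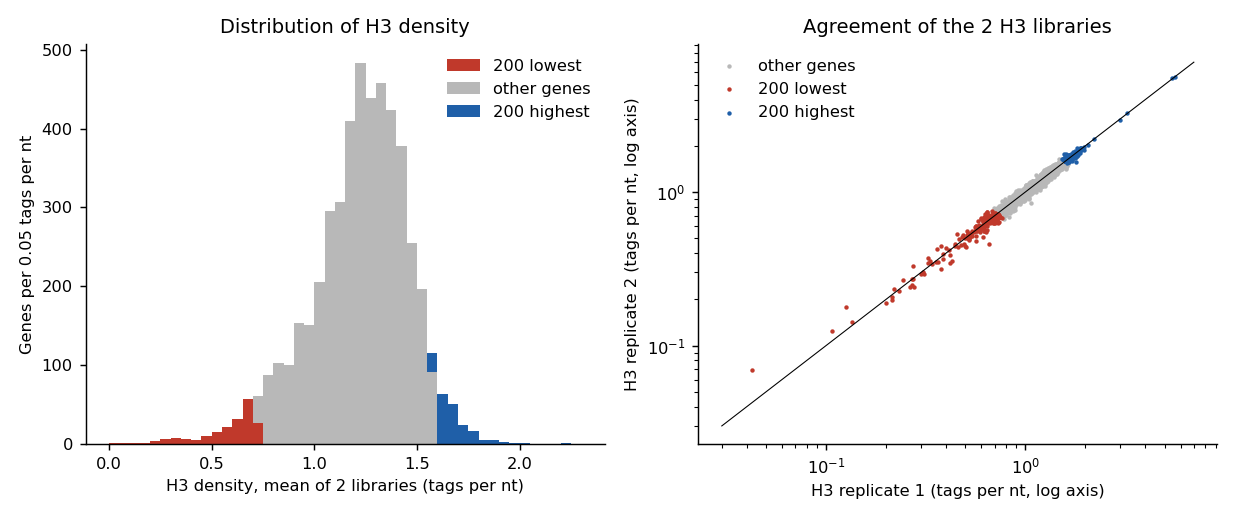
Left, number of genes per 0.05 tags per nt of mean H3 density, with the 200 lowest genes in red and the 200 highest in blue; 4 genes above 2.3 tags per nt lie outside the axis. Right, H3 density of each gene in replicate 1 against replicate 2 on log axes, with ura4 left out because it is at 0 in both; the points follow the line of equality from 0.0424 to 5.62 tags per nt.

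The sets have no gap at their borders. At the lower border, mug105 (0.722), annotated as a protease of a ubiquitin-like modifier, and snu23 (0.723), which encodes a subunit of the spliceosomal tri-snRNP, were the last members. The ribosomal protein gene rps2 (0.723) and SPBC3B8.08 (0.724) lay just outside. At the upper border, hob2 and the nucleoporin gene alm1 (both 1.59) were inside, while SPCC777.03c and SPAC11D3.15 (both 1.59) were outside. Within 1 SD of a mean of 2 libraries from the border, there were 18 genes inside and 21 outside the lowest set, and 54 inside and 73 outside the highest set. This SD came from all genes and served at both borders. Replicates differed more in the lowest set (SD of the log2 difference 0.12, against 0.05 over all genes), so its counts may be too small. Membership near the borders is therefore not resolved by these 2 libraries.

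The sequences printed here stand at the extremes of H3 density and show what the tags were read from; they were chosen after the values were seen. Enolase gene eno101 (0.254 tags per nt) and lsd90 (1.92 tags per nt) are both rich in G and C over the whole gene, at 50.5% and 53.8%, and stand at opposite ends of H3 density. The first 120 coding bases of each are given on the coding strand from the RefSeq sequence of assembly ASM294v3, with G and C in capitals.
eno101, chrII:2201237-2201356, plus strand: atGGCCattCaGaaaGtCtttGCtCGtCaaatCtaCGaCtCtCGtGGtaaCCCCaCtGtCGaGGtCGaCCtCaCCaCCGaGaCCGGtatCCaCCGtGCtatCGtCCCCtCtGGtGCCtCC
lsd90, chrII:1950136-1950255, minus strand: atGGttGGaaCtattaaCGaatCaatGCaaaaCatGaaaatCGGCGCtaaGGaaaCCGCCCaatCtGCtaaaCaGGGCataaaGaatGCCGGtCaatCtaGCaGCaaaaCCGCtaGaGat
The uncharacterized gene SPAPB15E9.02c (0.115 tags per nt) had 4.85 runs of at least 8 A or 8 T bases per kb, more than any other gene of the lowest set. Its coding window of 120 bases with most bases in such runs is shown with the run in capitals.
SPAPB15E9.02c, chrI:3992094-3992213, minus strand: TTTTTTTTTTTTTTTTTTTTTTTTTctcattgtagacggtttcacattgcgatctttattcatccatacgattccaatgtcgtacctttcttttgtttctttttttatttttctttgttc
The genes tlh1 and tlh2, at 5.46 and 5.60 tags per nt the highest of all, begin with the same 100 coding bases. A 50-nt tag from this stretch, which stands at chrI:5563-5662 (minus strand) and chrII:4526885-4526984 (plus strand), fits both.
tlh1 and tlh2: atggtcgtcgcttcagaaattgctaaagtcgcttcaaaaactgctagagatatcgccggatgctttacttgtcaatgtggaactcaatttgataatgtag

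The 12 lowest genes with at least 90% of their 50-mers unique in the genome comprised ura4, the Hsp70 chaperone gene ssa2, eno101, the meiotically upregulated genes mug106 and mug115 and 7 genes without a named function. No tag was recovered over ura4, which encodes an enzyme of uracil synthesis, in any of the 6 libraries. Its 1138 nt are deleted in strains that carry ura4-D18, and 3 tags would have given 0.00243 and 0.00264 tags per nt in the H3 libraries. This value stands for missing DNA and not for low occupancy. The next lowest gene, SPAC27E2.11c, had 0.0424 and 0.0690 tags per nt (30 and 45 tags). Over its coding exons the density was 0.132. It is the only member besides ura4 that rests on so few tags, and H3K14ac (0.263 and 0.236) and H4ac (0.322 and 0.289) were low over it as well. The other members of the lowest set rested on more tags, as SPAPB15E9.02c (264 and 281 tags) and SPAC1834.13 (165 and 160 tags) show. Among them, mat1-Mc and mat3-Mc, described below, are not read as low occupancy, and rows with few unique 50-mers are uncertain.

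SPAPB15E9.02c had 0.107 and 0.124 tags per nt of H3, but 1.29 and 1.27 of H3K14ac and 0.947 and 0.923 of H4ac. SPAC1834.13 had 0.134 and 0.141 of H3, against 0.955 and 0.962 of H3K14ac and 0.490 and 0.535 of H4ac. In both genes the replicates of an antibody lie together and the antibodies lie apart. The meiotically upregulated gene mug106 stood at 0.201 and 0.188, and at 0.330 over coding exons alone. The genes mug115 (0.213 and 0.198), SPAC56F8.13 (0.214 and 0.208) and SPAC56F8.15 (0.264 and 0.242) lie next to each other on chromosome I at 1148131 to 1153638. SPAC56F8.13 lies within mug115 on the opposite strand over its whole 1582 nt, so these 3 rows share tags and are not independent measurements. Over coding exons alone mug115 had 0.0941. SPAC17A2.11 (0.219 and 0.234) and SPAC23H4.05c (0.233 and 0.226) complete the 12.

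Ssa2, a chaperone that helps proteins fold, had the lowest density among genes of known function that are present in the strain. Over ssa2, H3 was 0.125 and 0.179 tags per nt, and over its paralog ssa1 it was 1.16 and 1.23. Both genes hold 99.7% unique 50-mers, so their tags can be told apart. The Hsp90 chaperone gene hsp90 had 0.379 and 0.443, and the mitochondrial chaperonin gene mcp60 had 0.719 and 0.698. These were the 3 genes of the list of heat shock proteins and chaperones in the lowest set, of 30 measured, and the median of the 30 was 1.20. Not all of the 30 encode chaperones, since the list also holds the transcription factor gene hsf1 and the genes hsp3101 to hsp3105. In the highest set stood 1 gene of this list, hsp3101 (1.66 and 1.69), annotated as a glyoxylase III.

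Each set holds 4.03% of all genes, the share against which the counts of list members are to be read. Glycolysis and fermentation, which carry glucose to ethanol, gave 9 of 18 genes (50%) to the lowest set. Enolase gene eno101 had 0.242 and 0.266 tags per nt. The glyceraldehyde-3-phosphate dehydrogenase gene tdh1 had 0.274 and 0.272, phosphoglycerate kinase gene pgk1 had 0.273 and 0.331 and aldolase gene fba1 had 0.323 and 0.374. The alcohol dehydrogenase gene adh1 followed at 0.384 and 0.393, although 2894 nt of its 3463 nt are shared with SPCC13B11.02c on the other strand, also a member. Phosphoglycerate mutase gene gpm1 (0.452 and 0.534), pyruvate decarboxylase gene pdc101 (0.564 and 0.598), hexokinase gene hxk2 (0.640 and 0.639) and pyruvate kinase gene pyk1 (0.664 and 0.653) complete the 9. The hxk2 row shares 691 nt with mug114 (0.300 and 0.294), also a member, and over its coding exons alone hxk2 had 1.09. Paralogs of several of these genes had higher densities. A second enolase gene, eno102, had 1.16 and 1.15, gpd3, a paralog of tdh1, had 1.24 and 1.29, and hxk1 had 1.12 and 1.10, all in neither set. The pyruvate decarboxylase genes pdc102 (1.72 and 1.70) and pdc201 (1.65 and 1.69) were in the highest set, and pdc202 (1.39 and 1.38) was in neither. Of these enzymes, pyruvate decarboxylase alone had genes in both sets.

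A pair of plasma membrane proton pumps was also split between the sets. Over pma1 the densities were 0.491 and 0.462, and over pma2 they were 1.65 and 1.69. The pair was chosen after its values were seen. Among the 8 hexose transporters, densities ran from 0.734 and 0.725 for ght8, which had 1.18 over coding exons alone, to 1.78 and 1.81 for ght1. With ght6 (1.69 and 1.70), ght1 made 2 members of the highest set. The 8 genes had a median of 1.47, above that of all genes.

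Ribosomal protein genes formed the largest named group of the lowest set, with 46 of 124 measured genes (37.1%) in it and none in the highest set. All 124 had a mean H3 density below the median of all genes, and their own median was 0.753 tags per nt. The lowest was rpl39, with 0.429 and 0.354 (276 and 210 tags), and the highest was rpl1603, with 1.17 and 1.12. All 2726 nt of the rpl1603 row overlap other protein-coding rows, and over its coding exons alone it had 0.951. Ribosomal protein genes are short, with a median of 749.5 nt, and short genes had lower H3 density in general. Among genes of 500 to 750 nt, the 62 ribosomal protein genes had medians of 0.727 and 0.719 in replicates 1 and 2, and the 186 other genes had 1.03 and 1.02. Among genes of 1000 to 1500 nt, the 19 ribosomal protein genes had 0.797 and 0.819, and the 1000 others 1.16 and 1.15. The order was the same in each of 4 length classes and in each library, and was not tested, since H3 density chose the genes. Their median GC content was 42.6%, against 36.7% for all genes, and the part of base composition in this was not tested.

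Genes of translation elongation lay low as well. Of 9 measured, 5 were in the lowest set, namely tef101, tef102 and tef103, which encode EF-1 alpha, and tif51 and tif512. The tef103 row had 0.444 and 0.445 tags per nt. Only 29.3% of its 50-mers are unique, as the EF-1 alpha genes are near copies of each other, so their separate values are uncertain. Elongation factor 2 gene eft201 had 1.31 and 1.28, with 15.5% unique 50-mers. Histone genes, whose own chromatin is described here, were all below the overall median (11 of 11). Of these, hht2, which encodes H3, had 0.557 and 0.591 and was in the lowest set together with the H4 genes hhf1 (0.645 and 0.635) and hhf3 (0.641 and 0.628). The highest of the list was pht1, the gene of the variant H2A.Z, at 1.12 and 1.11. The actin gene act1 had 0.894 and 0.913.

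Other lists lay nearer the middle. The 73 nuclear genes of mitochondrial ribosomal proteins had a median of 1.08, and 4 were in the lowest set, with mrpl16 (0.531 and 0.525) the lowest, at 0.986 over coding exons alone. Those of 1000 to 1500 nt had 1.11 and others of that length 1.15, a smaller gap than that of the ribosomal protein genes above. None of 32 proteasome subunit genes was in either set, and their median was 1.25. None of 86 ribosome biogenesis genes was in the lowest set and 1, utp21 (1.64 and 1.64), was in the highest. Transcription factors (119 genes, median 1.31), protein kinases (94 genes, median 1.34) and transmembrane transporters (66 genes, median 1.35) had medians above that of all genes. They gave 4, 0 and 1 genes to the lowest set and 7, 6 and 5 to the highest. The lowest of the transcription factor list was taf9 (0.536 and 0.544, and 0.940 over coding exons alone), which encodes a subunit shared by SAGA and TFIID.

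**Figure D2:**
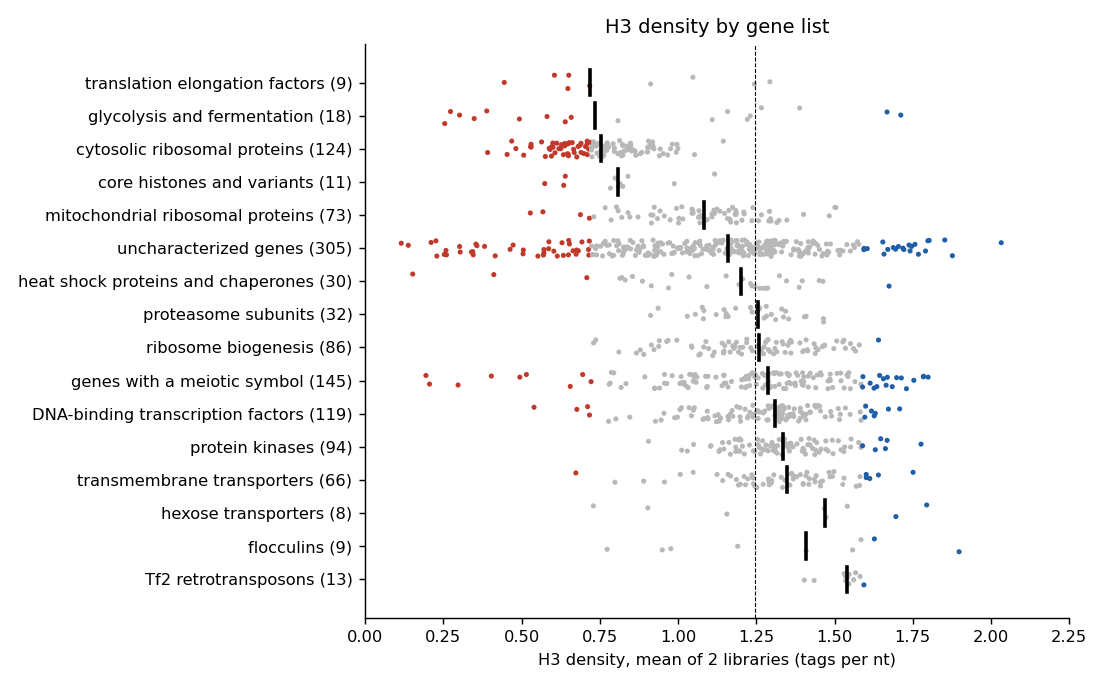
Mean H3 density of each gene (x axis, tags per nt) in 16 gene lists, with the number of measured genes in brackets; red and blue points belong to the 200 lowest and 200 highest genes, black bars are list medians and the dashed line is the median of all genes, 1.24. Ribosomal protein genes lie wholly to the left of the dashed line and Tf2 retrotransposons wholly to the right.

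Genes without a named function were found at both ends. Of 305 measured, 42 (13.8%) were in the lowest set and 22 (7.21%) in the highest, with a median of 1.16. Genes with a meiotic symbol, which are induced in or needed for meiosis and sporulation, gave 9 of 145 (6.21%) to the lowest set, near the share of all genes, and 17 (11.7%) to the highest. The 9 were mug genes and rec7. The 17 included the recombination gene rec6 (1.81 and 1.76), mde7 (1.83 and 1.73) and meu27 (1.79 and 1.81), the highest of the list. The meu27 row lies within chk1 over its 2693 nt, and chk1 is a member too. Among the 40 lowest genes, 22 had no named function or a meiotic symbol, 8 belonged to glycolysis, elongation, chaperones or histones and 2 to ribosomal proteins. The lowest densities were thus measured mostly outside the ribosomal protein list.

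The highest densities belonged to genes at the chromosome ends. Over tlh2 and tlh1, which encode RecQ type DNA helicases, H3 was 5.62 and 5.59, and 5.44 and 5.48 tags per nt. SPAC212.06c, annotated as helicase-like, had 3.22 and 3.26, and SPAC750.08c had 2.98 and 2.94. Unique 50-mers made up 6.75%, 0.891%, 20.4% and 0% of these 4 rows, respectively. The study states unique mapping of tags, yet the 29 genes without any unique 50-mer had a median H3 density of 1.53. H3 per copy and the number of copies in the strain cannot be told apart in such rows. In the same rows the marks were not high. H3K14ac over tlh2 was 0.580 and 0.563 and H4ac was 1.03 and 1.02, so the excess was confined to the H3 libraries among the 3 antibodies.

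Among genes with at least 90% unique 50-mers, hry1 was highest, with 2.20 and 2.21 tags per nt at 75.8 kb from an end of chromosome I. Its product is annotated as a cation-binding protein. SPBPB2B2.08 had 2.05 and 2.01 and lies 63.1 kb from an end of chromosome II. Far from the ends stood lsd90 (1.91 and 1.93), whi5 (1.96 and 1.86), which encodes a transcriptional repressor of the cell cycle, the esterase or lipase gene SPAPB1A11.02 (1.88 and 1.92) and urg1 (1.83 and 1.83), a gene named for its regulation by uracil. The remaining 6 of the 12 highest unique genes were SPCC569.04 (1.82 and 1.93), SPAC186.08c (1.88 and 1.79), SPAC869.01 (1.82 and 1.81), SPAC186.07c (1.83 and 1.80), meu27 and ght1. SPAC186.08c is annotated as a lactate dehydrogenase, SPAC869.01 as an amidase and SPAC186.07c as a hydroxyacid dehydrogenase. Further members, chosen after their values were seen, were the thiamine-repressed gene nmt1 (1.72 and 1.77) and the invertase gene inv1 (1.62 and 1.68).

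Of the 72 genes within 50 kb of a chromosome end, 34 were in the highest set and none in the lowest. They made up 17% of the highest set and 1.45% of all genes. The median H3 density was 1.57 at 0 to 25 kb, 1.57 at 25 to 50 kb, 1.31 at 50 to 100 kb, 1.22 at 100 to 200 kb and 1.24 beyond. Repeated sequence is common there. Among the 29 genes within 50 kb with at least 90% unique 50-mers, 14 were in the highest set, and those at 25 to 50 kb had a median of 1.57. This rests on 27 such genes at 25 to 50 kb, since 2 lie nearer to an end. By chromosome, the unique genes at 25 to 50 kb had medians of 1.66 on I (6 genes), 1.43 on II (6 genes, 2 in the highest set) and 1.56 on III (15 genes).

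**Figure D3:**
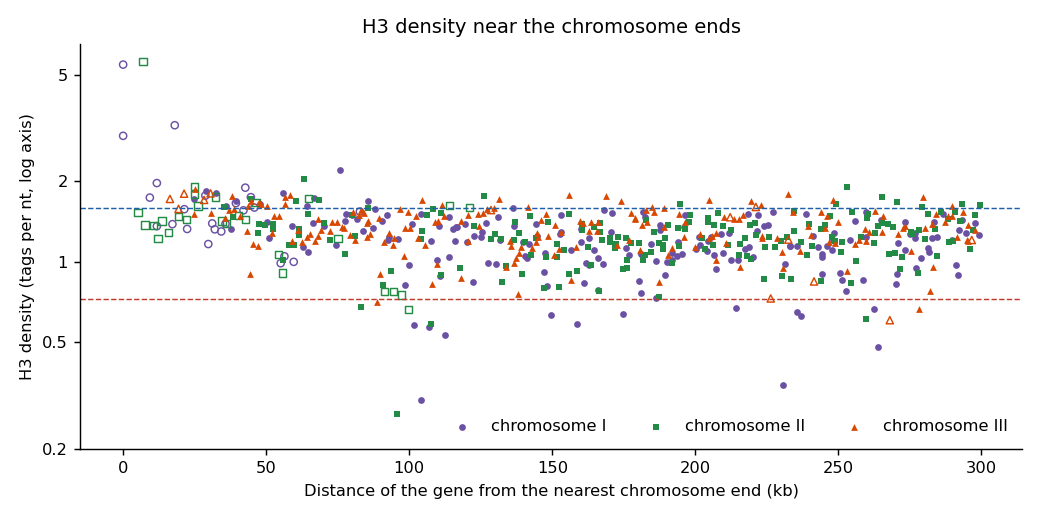
Mean H3 density (log axis, tags per nt) against distance from the nearest chromosome end for genes near the ends, by chromosome; open symbols have under 90% unique 50-mers, and the dashed lines are the borders of the lowest set (0.723) and the highest set (1.59). No gene within 50 kb falls below the lower line.

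Chromosome III was set apart beyond its ends. It carries 18.0% of the genes, but 80 of the 200 highest genes (40%) and 19 of the 200 lowest (9.5%). Its median H3 density was 1.33 in replicate 1 and 1.34 in replicate 2, against 1.23 and 1.22 on chromosome I and 1.24 and 1.23 on chromosome II. Beyond 200 kb from the ends the median on chromosome III was 1.33 in replicate 1 and 1.34 in replicate 2. In genes of 2000 to 3000 nt beyond 200 kb from the ends, it was 1.38 and 1.38 on III and 1.27 and 1.27 on I. Chromosome III had the highest median in each of 5 length classes. The marks did not share it, with medians on III of 1.20 and 1.21 for H3K14ac and 1.17 and 1.18 for H4ac, and on I of 1.25 and 1.25, and 1.25 and 1.24. Without the Input these H3 medians are not corrected for the recovery of each chromosome's DNA.

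Retrotransposons and gene families at the surface of the cell complete the upper part. The 13 Tf2 retrotransposons lay between 1.40 and 1.59, all above the overall median, with 1 (Tf2-11, 1.60 and 1.58) in the highest set. None holds 90% unique 50-mers, so their tags cannot be assigned to a single element. Of 9 flocculin genes, which encode adhesins, gsf2 (1.89 and 1.91) and pfl5 (1.62 and 1.63) were in the highest set, with 60.2% and 56.9% unique 50-mers, while pfl2 (0.736 and 0.810) was close to the lowest. Of 20 wtf genes, a family of spore killers, wtf4 alone was in the highest set.

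Low H3 went with short genes. The lowest set had a median length of 1025 nt, the highest 2166.5 nt and all genes 1930 nt. Genes under 1000 nt made up 49% of the lowest set, 15% of the highest and 11.5% of all. The median H3 density climbed with length, from 0.898 in genes of 500 to 750 nt to 1.43 in genes of 5000 nt or more. In those classes, 25.4% and 0% of genes were in the lowest set. The greater length of the highest set was less firm, since its median fell under that of all genes when coding exons drew the sets (1603 nt) or when 100 genes were taken (1812 nt). A gene row includes untranslated ends, and coding exons alone gave higher densities, with a median of 1.48 over all genes. Over coding exons the medians by length ran from 1.16 to 1.55, a smaller span than over whole rows.

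Base composition related to H3 from both sides. Genes under 32% GC had a median H3 density of 0.920, those at 40 to 42% had 1.35 and those of 45% or more had 0.845. In the 62 genes of 45% GC or more, 32.3% were in the lowest set. Those members of the lowest set belong to the lists of glycolysis, elongation, ribosomal proteins and chaperones, apart from SPAC27E2.11c, and lsd90, at 53.8% the most GC-rich of all genes, was in the highest set. Runs of at least 8 A or 8 T bases, counted on both strands, were found in 9.76% of 120-nt windows of the lowest set, 2.51% of the highest and 5.20% of all genes. Counted per gene the order differed, since 52.5% of the lowest genes held no such run, against 55% of the highest and 40.8% of all. Runs per kb had a median of 0 and an upper quartile of 1.49 in the lowest set, against 0.391 and 0.819 over all genes. The lowest genes are also shorter, and a shorter gene has fewer windows in which to hold a run. These are matches to letters only. No Input was set against them, so the part of sequencing and amplification in these relations was not tested.

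**Figure D4:**
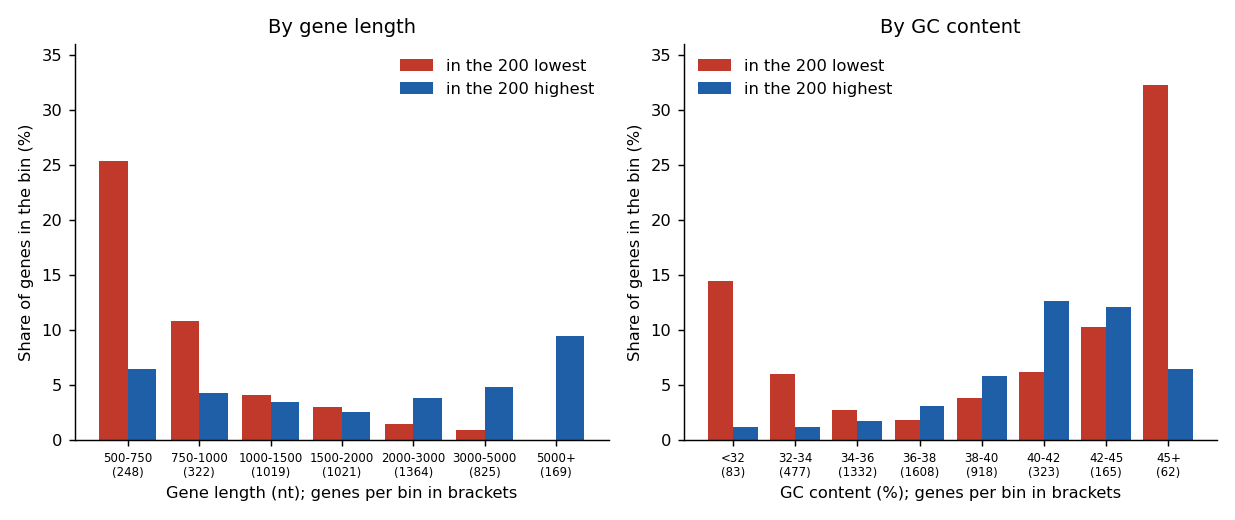
Share of genes (y axis, percent) that belong to the 200 lowest (red) or 200 highest (blue) genes of H3 density, by gene length in nt (left) and by GC content in percent (right), with the number of genes per class in brackets. The share of lowest genes is 25.4% at 500 to 750 nt and 32.3% at 45% GC or more.

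Some members stood beside other members. In the lowest set 51 of 200 genes, and in the highest set 60 of 200, had a neighbouring gene in the same set. What share of all genes has a member of a set as neighbour was not computed, so these counts are not read as clustering. The longest stretches of lowest genes held 3 genes, as pdc101, SPAC1F8.08 and SPAC11D3.19 on chromosome I. The longest of the highest held 4, namely SPAC186.06, SPAC186.07c, SPAC186.08c and pdc102 on chromosome I at 5542290 to 5554529, and nic1, SPCC757.02c, hsp3101 and SPCC757.04 on chromosome III at 43480 to 52850. Part of this adjacency comes from overlap, since 21 genes of the lowest set and 4 of the highest overlap another member and share tags with it. Flanking genes that were not members had a median H3 density of 1.20 beside the lowest genes and 1.33 beside the highest, against 1.24 for all. Noncoding rows of the table covered at least 50% of the gene in 32.5% of the lowest set, 15.5% of the highest and 14.7% of all genes.

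The mating-type genes mat1-Mc (0.705 and 0.729) and mat3-Mc (0.648 and 0.705) were also in the lowest set. The first 100 coding bases of mat1-Mc recur in mat3-Mc, and neither row holds a unique 50-mer.
mat1-Mc and mat3-Mc, chrII:2114482-2114581 and chrII:2132849-2132948, plus strand: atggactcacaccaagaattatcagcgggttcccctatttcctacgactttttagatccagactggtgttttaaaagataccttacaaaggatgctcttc
Both marks were low over mat1-Mc, with H3K14ac at 0.0632 and 0.0794 and H4ac at 0.127 and 0.117 tags per nt. An h+ strain carries P genes at mat1, so the M copy of the reference may be missing DNA at that place, and the tags cannot be told apart by copy. These values are therefore not read as low occupancy, and the genes were chosen after their values were seen.

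The H3 libraries agreed closely. Across the 4968 genes, Pearson's r of log2 density was 0.990 and the SD of the log2 difference was 0.05, a description across genes, which are not independent replicates. In the lowest set this SD was 0.12, where counting error gives 0.09 for the median gene, and in the highest set it was 0.04, where counting error gives 0.03. A median of 596 tags in replicate 1 and 547 in replicate 2 lay behind a gene of the lowest set, and 3867.5 and 3589 behind one of the highest. When the lowest 200 genes were drawn from replicate 1 alone, they had a median of 0.630 in replicate 2, and the highest 200 had 1.66. Of the sets drawn from each library, 179 of 200 lowest and 164 of 200 highest genes were shared.

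Replicate differences beyond 3 times the counting SD were found in 8 lowest and 2 highest genes (mug27 and mag2), and in 50 of all genes (1.01%). Over ssa2, pgk1, hsp90 and the aldehyde dehydrogenase gene atd1, replicate 2 was higher. Over the superoxide dismutase gene sod1 (0.660 and 0.456), ecl2, SPBP35G2.17 and SPBPB10D8.02c, replicate 1 was higher. In sod1 the difference was -0.52 on the log2 scale. Both libraries stayed below the overall median in each of these 8 genes, as in all members of the lowest set, since H3 density chose them.

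The acetylation libraries were not used in drawing the sets. Median H3K14ac density was 1.58 and 1.55 in the lowest set, 0.912 and 0.910 in the highest and 1.23 and 1.23 over all genes, in replicates 1 and 2. For H4ac it was 1.58 and 1.55, 0.869 and 0.884, and 1.23 and 1.23. The sets differ in length, and the marks were not compared at matched length. As read here, the medians of both marks were higher in the lowest set and lower in the highest than over all genes. Groups of the lowest set departed from this, with medians for H3K14ac and H4ac of 0.667 and 0.957 in glycolysis and fermentation, 0.512 and 0.946 in the chaperones and 0.748 and 0.849 in the elongation factors. No ratio of a mark to H3 is given for these sets, since H3 chose them.

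The balance of the marks is a comparison that does not use H3. The marks come from different antibodies, and each library was scaled by 1 factor. Higher and lower, or more and less, are therefore relative to that scaling and are not amounts of a mark against the other. By limma on log2(density + 0.01) with Benjamini-Hochberg adjustment over 5128 gene rows, at an adjusted p under 0.05, H3K14ac was higher than H4ac in 67 (33.7%) and lower in 75 (37.7%) of the lowest genes, with ura4 left out by the filter, where 32.9% of all tested gene rows were higher and 36.6% lower. In the highest set, 74 of 200 were higher (37%) and 85 lower (42.5%). Over the genes of at least 500 nt the background was 32.5% and 37.1%. The lowest set was thus near the background in both directions, and the highest set a little above it in both. Calls were made on small differences, and at least 1.5-fold differences were found in 6 higher and 11 lower genes of the lowest set and in 25 higher and 4 lower genes of the highest. The share of all genes at this fold limit was not computed, so these counts are not read as a trait of either set.

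Within the lowest set the balance differed by group. In glycolysis and fermentation, 6 of 9 genes had less H3K14ac than H4ac and 1 had more, with a median log2 ratio of -0.58. All 3 chaperone genes (median -0.86) and all 3 histone genes (median -0.36) had less. For ssa2, H3K14ac was 0.359 and 0.400 tags per nt and H4ac 0.907 and 0.985, so that the log2 difference was -1.30 with an SE of 0.14 (adjusted p = 3.02e-05 by limma, Benjamini-Hochberg). For eno101, H3K14ac was 0.674 and 0.660 and H4ac 1.06 and 1.09, and the log2 difference was -0.68 with an SE of 0.053 (adjusted p = 3.83e-06 by limma, Benjamini-Hochberg). The libraries of the 2 marks did not overlap in either gene. In genes without a named function, by contrast, 27 of 42 had more H3K14ac and 7 had less (median 0.22), and 8 of 9 genes with a meiotic symbol had more (median 0.42). For SPAC1834.13 the log2 difference was 0.89 with an SE of 0.073 (adjusted p = 5.50e-06 by limma, Benjamini-Hochberg). Ribosomal protein genes had 18 higher and 4 lower of 46, with a median near 0 (0.04), and members in no list had 12 higher and 44 lower of 73. The difference between these groups was not tested as such. Each of these lists as a whole had the same direction. Of 18 glycolysis and fermentation genes, 5 were higher and 8 lower. Of 30 heat shock and chaperone genes it was 4 and 16, and of 11 histone genes 0 and 8. Of 124 ribosomal protein genes 64 were higher and 6 lower, and of 305 without a named function 134 and 91. Genes with a meiotic symbol had 70 higher and 49 lower of 145. These counts include the members of the lowest set, and the lists without them were not counted. In the highest set the directions differed. Genes with a meiotic symbol had 6 higher and 10 lower of 17 there, and genes without a named function 9 and 11 of 22. Glycolysis and fermentation had 1 higher and 0 lower of 2. Whether the directions are particular to the lowest set was not tested.

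**Figure D5:**
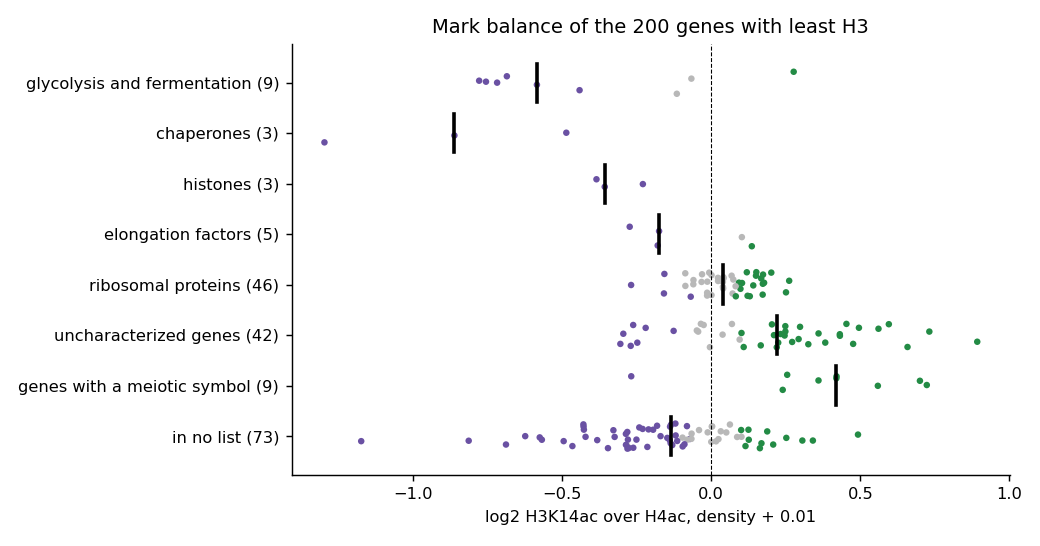
Log2 ratio of H3K14ac to H4ac (x axis, density plus 0.01) of genes in the lowest set by group, with the number of tested genes in brackets; purple and green points are genes called lower and higher by limma, grey points are not called and black bars are medians. Chaperones have a median of -0.86 and genes with a meiotic symbol 0.42.

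In the highest set, the largest excess of H3K14ac over H4ac was that of SPAC869.01, with H3K14ac at 0.930 and 0.868 and H4ac at 0.384 and 0.377, or 1.22 on the log2 scale with an SE of 0.036 (adjusted p = 2.76e-08 by limma, Benjamini-Hochberg). For hry1 (0.720 and 0.671 against 0.336 and 0.336) it was 1.03, and for SPBPB2B2.08 (0.968 and 1.07 against 0.469 and 0.432) it was 1.16. The tlh1 and tlh2 rows had the opposite sign, with -0.81 and -0.83. Among the 34 members within 50 kb of a chromosome end, 17 (50%) had more H3K14ac and 14 (41.2%) had less. Of all tested gene rows, 32.9% had more and 36.6% less, and the difference from this background was not tested.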

How the data were processed

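Per the labels and the study's methods, single-end reads of 50 nt were mapped uniquely with Bowtie2 to ASM294v2. The authors deposited tag density signal (tags per nt) per feature, scaled by 1 factor per library, since density times length gave whole multiples of 1 step (within 0.05 tags) in 100% of 19343 rows. The rule that placed tags in features is not given in the sources used here, and the coverage is the same for both strands. Tags recovered over the 4968 genes summed to 15156106 and 13960900 in H3 replicates 1 and 2, with overlapping genes counted more than once, and 3 tags were taken as the floor. Intervals and floors of counts cover counting error only.

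Gene symbols, GC content and 50-mer uniqueness came from the RefSeq sequence and annotation of ASM294v3, in which 5111 of 5129 identifiers were found, and 99.9% of 5119 transcripts began with ATG at the table's position. The 2 Input libraries were not analysed here. H3 density is the mean of 2 libraries. The marks were compared with limma 3.58.1 (R 4.3.3; lmFit, eBayes with trend) on log2(density + 0.01), which understates changes at low density, keeping genes that reached 0.05 tags per nt in 2 or more libraries, with all 6 libraries in the fit. The planned count model did not apply to densities. The fit was tested on simulated data. Labels call the replicates biological, and p-values measure the spread between these samples. Python 3.11.15 with pandas 2.3.3 and matplotlib 3.10.9 gave the other values.

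Genes named by rule were the 12 lowest and 12 highest with at least 90% unique 50-mers, the 5 lowest and 5 highest of all, the 4 genes around each border of the sets, the lowest and highest member of each list, and act1. Other named genes were chosen after their values were seen. The sets and gene lists were chosen with earlier results of these data known. Alternatives to the replicate, length minimum, uniqueness, exon, overlap, set size, pseudocount, filter, scaling and weighting choices were computed. The one without ura4 was added after seeing the data.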

Additional observations from a re-analysis of the deposited data

How the results depend on the processing

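The sets were redrawn under each alternative, and 94 of 138 values moved by less than the spread between replicates or stayed within 1.5 times. The low median H3 density of 0.633 became 0.635 with unique genes only, 0.719 from 1000 nt, 0.586 with no length minimum, 0.771 over coding exons, 0.720 without overlapping genes, 0.507 with 100 genes and 0.723 with 400, and ran from 0.628 to 0.630 without 1 replicate. The high median of 1.67 became 1.64, 1.64, 1.67, 1.93, 1.63, 1.72 and 1.59 in the same order, and 1.65 to 1.67 without 1 replicate. The low set's median length of 1025 nt became 995, 1575, 819, 870, 891, 1136.5 and 975.5 nt. The high set's 2166.5 nt became 2252.5, 2348, 1953, 1603, 2101, 1812 and 2487.5 nt, and 2166.5 to 2183.5 nt without 1 replicate. With coding exons and with 100 genes, the high set's median length was thus under that of all genes, 1930 nt. Ribosomal protein genes in the low set were 14 from 1000 nt, where most of them are left out by length, and high genes within 50 kb of an end were 14 among unique genes, where 29 of the 72 genes near the ends remain.

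With unique genes only, median H3K14ac of the high set was 0.930, and median H4ac was 1.61 in the low set and 0.919 in the high set. Without 1 replicate, H3K14ac ran from 1.55 to 1.58 and from 0.910 to 0.912. Calls of H3K14ac against H4ac with 1.5-fold in addition were 6 higher and 11 lower in the low set, and 25 and 4 in the high set, with no share over all genes at this limit. Whether same-numbered libraries came from 1 culture was not settled here. The correlation of their deviations was 0.01 for H3 and H3K14ac, -0.01 for H3 and H4ac and 0.12 for H3K14ac and H4ac. Such values across genes cannot exclude a shared culture. With the replicate block, calls were 67 higher and 78 lower in the low set and 74 and 85 in the high set. Leaving out ura4, an alternative chosen after seeing the data, moved no value beyond the spread. Of 198 alternative densities of the 66 genes named by rule, 52 moved, each of them over coding exons, where 9 genes were higher by over 1.5 times and 2 lower (mug115 and SPAC23H4.05c). Low densities on short rows are limited by depth, with 30 and 45 tags over SPAC27E2.11c.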
